A study of Homo sapiens with 6 samples.

Results

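Cells carry proteins that detect DNA outside the nucleus and nucleases that remove it, and 10 genes of this system were followed in a plasmid transfection study of HEK293 cells. The sensors were CGAS, IFI16, AIM2, ZBP1 and DDX41, and the adaptor was STING1. TREX1 and SAMHD1 represented clearance, and POLR3A and POLR3F represented RNA polymerase III. They were chosen by gene symbol in the array's probe annotation, out of 18417 genes with a transcript cluster of their own. A transcript cluster is a set of probes for 1 transcribed locus. Of the 10 genes, 9 had such a cluster, 1 each. The annotation gives the remaining one, TREX1, a cluster shared with ATRIP, so no value can be assigned to TREX1 alone.

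Expression was measured on 6 Affymetrix Gene 1.0 ST arrays, 3 titled treatment and 3 titled control, all of HEK293 cells. This is a human embryonic kidney line made with sheared adenovirus DNA. The source label of the treatment arrays names a Neo vector and that of the control arrays a transient vector, whereas the stated design sets pCMV9-transfected cells against untreated cells. What the control cells received is therefore not settled, and the groups are called treatment and control. The aim given was to find the mediators behind an anti-HIV effect of the empty plasmid. Dose, time after transfection and whether replicates were separate cultures are not in the labels, so the p-values cover only array-to-array spread, some or all of which may be technical.

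The best known route of DNA detection starts with cGAS, which binds double-stranded DNA and makes a cyclic dinucleotide. STING binds this messenger and recruits the kinase TBK1, which activates IRF3 and so interferon genes. IFI16 and AIM2 belong to the PYHIN family. AIM2 assembles an inflammasome on DNA, while IFI16 has been linked to STING. RNA polymerase III can transcribe AT-rich DNA into RNA that RIG-I detects. TREX1 degrades cytosolic DNA, and SAMHD1 hydrolyses the nucleotides that reverse transcription needs. Several of these genes are themselves known to be induced by interferon.

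Median intensity per array lay between 80.5 and 84.2 in treatment and between 77.2 and 81.1 in control arrays. Treatment replicate 3 was the least like the others, with a mean Pearson's r of 0.963 with the remaining 5 arrays, against 0.972 to 0.978 for the rest. The line's known markers were present: vimentin (VIM) averaged 1085 ± 107 in treatment and 1325 ± 72.7 in control arrays (SD, n = 3 each), and neurofilament NEFM 940 ± 264 and 949.6 ± 74.4. Of 10 measured line markers 0 passed limma. At an unadjusted p under 0.05, which 7.30% of all clusters met, stood 1 of them, the kidney factor PAX2 (log2 change 0.76 ± 0.203, SE).

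Of the 9 genes with their own cluster, 2 rose in the treatment arrays, 0 fell and 7 did not pass. IFI16, the nuclear and cytosolic DNA-binding PYHIN protein, was 3.80-fold higher, and SAMHD1, the nucleotide-hydrolysing restriction factor, was 2.44-fold higher (ratios of mean intensity). Passing means an adjusted p under 0.05 by limma over all 33297 clusters, of which 0.357% rose and 0.0150% fell. These clusters include 12083 without a gene symbol, so their share is not that of named genes. When 1 cluster per gene was tested, with the same error for every gene, 131 of 18417 rose. The median log2 change over the 9 genes was 0.0085, beside 0.012 over all clusters. Each log2 change is the mean of log2(intensity + 16) in treatment arrays minus that in control arrays, a scale that shrinks the changes of dim clusters. Leaving out treatment replicate 2 or control replicate 1 left 1 gene past the threshold, IFI16.

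**Figure D1:**
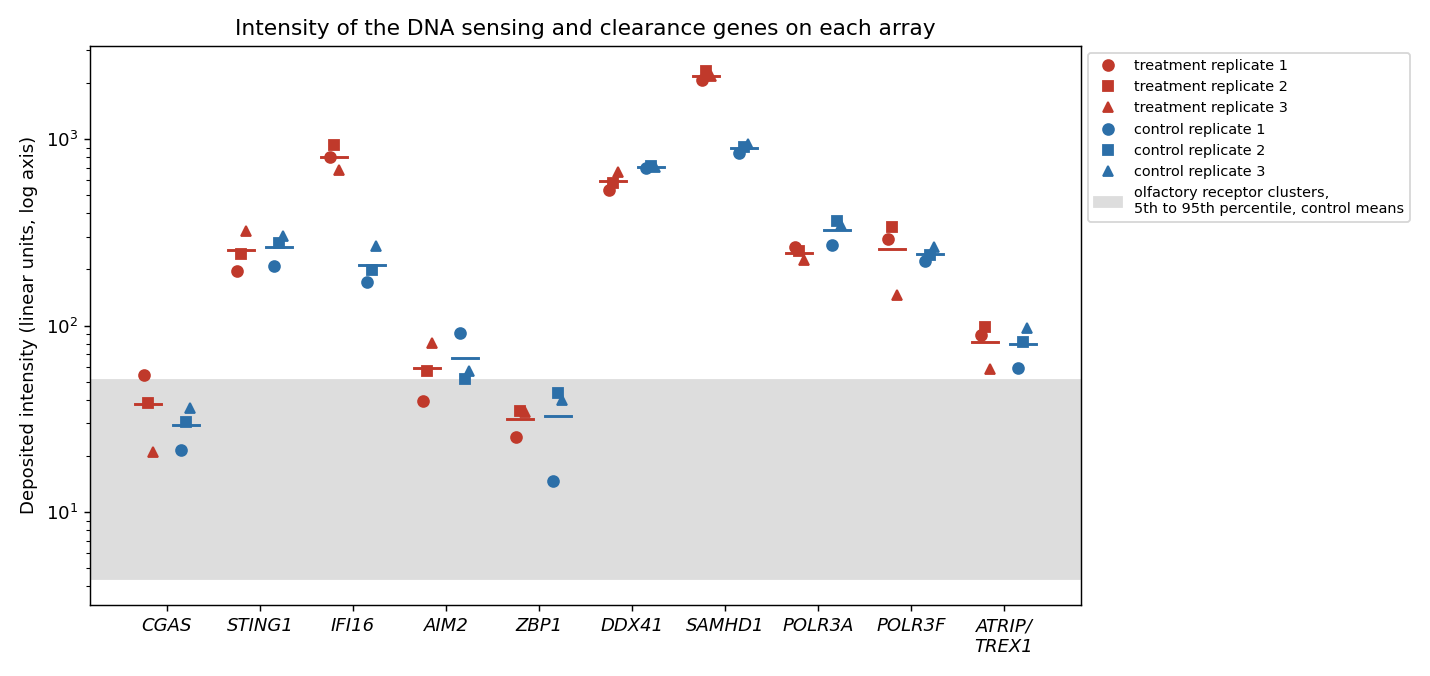
Deposited intensity (log axis) of each gene on the 3 treatment arrays (red, left) and the 3 control arrays (blue, right), with a line at each group's mean. The grey band spans the 5th to 95th percentile of 360 olfactory receptor clusters (control means, 4.36 to 51.2). IFI16 and SAMHD1 have all 3 treatment arrays above all 3 control arrays, and CGAS and ZBP1 have both group means inside the band. Levels of different clusters depend on their probes and are not compared.

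IFI16 gave intensities of 802, 931 and 681 in treatment replicates 1, 2 and 3, against 171, 198 and 266 in control replicates 1, 2 and 3. The lowest treatment array was above the highest control array. Means were 804 ± 125 in treatment and 212 ± 49.1 in control arrays (SD, n = 3 each). The log2 change was 1.86 ± 0.222 (SE; 95% interval 1.38 to 2.34; limma, adjusted p = 0.000693). It ranked 50 among 33297 clusters by p and 62 by size among the 119 that rose. The call ended on a plain log2 scale (adjusted p = 0.111) and after adding 1 in place of 16 (0.065), although the log2 change was then 1.94 and 1.93.

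SAMHD1 gave 2073, 2307 and 2167 in the treatment arrays, against 838, 902 and 943 in the control arrays. The groups were far apart relative to their spread, at 2182 ± 118 and 894 ± 52.9 (SD, n = 3 each). Its log2 change came to 1.27 ± 0.192 (SE; 95% interval 0.86 to 1.68; limma, adjusted p = 0.00549). SAMHD1 ranked 81 by p and 101 by size among the 119 clusters that rose. Its call was the less stable: the adjusted p was 0.067 without treatment replicate 2, 0.0596 without control replicate 1, 0.104 after adding 1 and 0.125 on a plain log2 scale. In all of these the log2 change stayed between 1.23 and 1.29. In RNA of whole cultures, more cells expressing a gene and more RNA per cell cannot be told apart.

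IFI16 and SAMHD1 are also abundant in blood cells, so leukocyte markers were read beside them. Of 16 measured markers 0 passed limma, and 0 had p under 0.05 before adjustment. Their summed intensity was 1529.95 to 2077 in treatment and 1583 to 2068 in control arrays. Log2 changes were positive for 8 of the 16 and negative for 8, from -0.28 (PTPRC) to 0.42 (CD163), with a median of 0.0059. PTPRC (CD45) gave 8.45, 22.5 and 20.4 in treatment and 27.7, 20.6 and 22.0 in control arrays, within the olfactory receptor range. The 16 were not all dim: TYROBP averaged 578 in treatment and 679 in control arrays, LAPTM5 311 and 347, and CD14 212 and 182, above that range. CD163 gave 5.09, 4.78 and 9.43 in treatment arrays, against 0.0012, 2.12 and 0.0032 in control arrays. It was the only one of the 16 whose groups did not overlap. Of all clusters, 7.47% had such groups with higher and 7.10% with lower treatment values. The control values of CD163 in replicates 1 and 3 were close to 0. The B-cell marker MS4A1 averaged 12.9 ± 3.02 in treatment and 6.77 ± 4.60 in control arrays (SD, n = 3 each), with overlapping groups. Any part of these markers in the results was not tested.

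The genes whose pattern over the 6 arrays was most like that of IFI16 were IFIT5 (Pearson's r = 0.998), PARP9 (0.998) and TRIM69 (0.997). Those most like SAMHD1 were HERC6 (0.9998), IFIT1 (0.999) and EPSTI1 (0.999). All 6 rose themselves, by log2 changes of 1.16 (TRIM69) to 2.79 (IFIT1), though the call of TRIM69 ended under 8 of 17 alternatives. The search covered 11531 genes brighter than the median cluster, and r passed 0.9 for 155 of them with IFI16 and 147 with SAMHD1. With 2 separated groups of 3 arrays, such values mainly record a shared difference between the groups.

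Promoter sequence from RefSeq (GRCh38.p14) was available for 7 of the 10 genes, with IFI16 listed at 2 start sites, making 8 windows of 250 bases before a start. They are shown for the genes that rose, IFI16 and SAMHD1, and for AIM2 and POLR3A, which did not pass but also hold a match. Both strands were searched for GAAANNGAAA, the core of the interferon-stimulated response element, for GAAANGAAA, the same with a shorter spacer, and for TTCNNNGAA, the STAT dimer site. Capitals mark the matches. The windows lie at chr1:159009657-159009906 (plus strand, the second IFI16 start), chr20:36951709-36951958 (minus, SAMHD1), chr1:159076767-159077016 (minus, AIM2) and chr10:78029516-78029765 (minus, POLR3A), each written 5′ to 3′ in the direction of the gene.
IFI16: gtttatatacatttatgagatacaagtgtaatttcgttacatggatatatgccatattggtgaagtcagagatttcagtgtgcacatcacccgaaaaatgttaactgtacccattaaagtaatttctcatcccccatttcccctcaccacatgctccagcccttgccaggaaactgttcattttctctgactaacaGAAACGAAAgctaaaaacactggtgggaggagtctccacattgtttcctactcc
SAMHD1: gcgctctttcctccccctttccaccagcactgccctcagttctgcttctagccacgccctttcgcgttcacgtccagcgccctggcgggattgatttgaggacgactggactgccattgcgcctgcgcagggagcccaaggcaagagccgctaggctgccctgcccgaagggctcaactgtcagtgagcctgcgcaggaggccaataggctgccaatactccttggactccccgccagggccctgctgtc
AIM2: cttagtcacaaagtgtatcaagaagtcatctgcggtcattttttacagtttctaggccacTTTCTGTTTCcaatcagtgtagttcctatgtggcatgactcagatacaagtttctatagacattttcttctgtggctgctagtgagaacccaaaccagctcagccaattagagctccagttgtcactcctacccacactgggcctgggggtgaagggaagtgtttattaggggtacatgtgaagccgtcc
POLR3A: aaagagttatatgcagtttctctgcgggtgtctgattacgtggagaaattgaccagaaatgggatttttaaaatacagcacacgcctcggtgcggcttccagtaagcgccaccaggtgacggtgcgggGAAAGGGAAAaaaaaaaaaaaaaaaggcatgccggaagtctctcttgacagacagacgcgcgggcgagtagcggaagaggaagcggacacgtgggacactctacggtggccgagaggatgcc

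The window of the second IFI16 start holds GAAACGAAA from -54 to -46 relative to that start, and the window of its first start holds no match. That of SAMHD1 holds none of the 3 motifs. AIM2 holds TTTCTGTTTC, the response element core on the opposite strand, from -190 to -181, and POLR3A holds GAAAGGGAAA from -122 to -113. DDX41, TREX1 and POLR3F hold no match. Among all 35116 windows of this length, 3.02% hold GAAANNGAAA, 2.69% GAAANGAAA and 6.57% TTCNNNGAA, and 11.5% hold at least 1 of them. A match is a description of letters, not a site in use.

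CGAS, which encodes the enzyme at the head of the STING route, was dim. It gave 54.3, 38.5 and 21.0 in the treatment arrays, against 21.6, 30.4 and 36.3 in the control arrays. The groups overlapped, and the lowest of the 6 values was that of treatment replicate 3. Means were 37.9 ± 16.6 in treatment and 29.4 ± 7.42 in control arrays (SD, n = 3 each). Both lay within the 5th to 95th percentile of 360 olfactory receptor clusters, 5.39 to 67.4 in treatment and 4.36 to 51.2 in control arrays, a gene family mainly used by sensory neurons. The log2 change was 0.21 (95% interval -0.33 to 0.75; limma, adjusted p = 0.87), so no change was detected and a rise within that interval cannot be told from none.

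STING1, the adaptor that receives the cGAS messenger, stood above that range. Intensities were 196, 242 and 319.9 in the treatment arrays, against 208, 278 and 302 in the control arrays. Both groups spanned much the same values, at 253 ± 62.5 and 263 ± 48.8 (SD, n = 3 each). Its log2 change of -0.064 had a 95% interval from -0.56 to 0.43, so neither a small rise nor a small fall can be told from none (limma, adjusted p = 0.97).

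AIM2, the inflammasome-forming relative of IFI16, gave 39.6, 56.8 and 80.7 in the treatment arrays, against 91.1, 51.8 and 56.9 in the control arrays. Its groups overlapped, with means of 59.0 ± 20.7 and 66.6 ± 21.4 (SD, n = 3 each). The treatment mean was within the olfactory receptor range and the control mean just above it. On the log2 scale the change was -0.14 (95% interval -0.69 to 0.40; limma, adjusted p = 0.923). Whether the changes of IFI16 and AIM2 differ was not tested.

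ZBP1, which binds Z-form nucleic acid and can trigger necroptosis, was dim too. It gave 25.2, 34.6 and 34.2 in the treatment arrays, against 14.8, 43.7 and 40.1 in the control arrays. The control arrays enclosed the treatment arrays, and both means, 31.4 ± 5.32 and 32.9 ± 15.8 (SD, n = 3 each), fell within the olfactory receptor range. A log2 change of 0.0085 had a 95% interval from -0.54 to 0.56 (limma, adjusted p = 0.998).

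DDX41, a helicase reported to sense DNA upstream of STING and also a splicing factor, gave 533, 583 and 663 in the treatment arrays, against 697, 715 and 705 in the control arrays. Every treatment array was below every control array, and the control arrays hardly varied (593 ± 65.2 in treatment, 706 ± 9.15 in control; SD, n = 3 each). Its log2 change, -0.25 (95% interval -0.67 to 0.17), was short of the threshold (limma, adjusted p = 0.791).

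POLR3A, the catalytic subunit of RNA polymerase III, gave 263, 251 and 225 in the treatment arrays, against 270.0, 361 and 347 in the control arrays. The groups did not overlap, but treatment replicate 1 and control replicate 1 were close. The log2 change was -0.38 (95% interval -0.81 to 0.060; limma, adjusted p = 0.707), with means of 246 ± 19.3 and 326 ± 49.1 (SD, n = 3 each). Groups that did not overlap with lower treatment values, as for DDX41 and POLR3A, were found for 2 of the 9 genes, and for 7.10% of all clusters. For higher treatment values the counts were 2 of 9 and 7.47%.

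POLR3F, a smaller subunit of the same enzyme, gave 289.7, 338 and 146 in the treatment arrays, against 221, 240.2 and 264 in the control arrays. Treatment replicate 3 was the lowest of the 6 and the other treatment arrays were the highest. Means were 258 ± 100.04 and 242 ± 21.6 (SD, n = 3 each), and the log2 change was 0.014 (95% interval -0.56 to 0.59; limma, adjusted p = 0.996). Without treatment replicate 3 it was 0.36, with an adjusted p of 0.521.

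The cluster shared by ATRIP, a checkpoint partner of the kinase ATR, and TREX1, the cytosolic DNA exonuclease, gave 88.9, 97.8 and 58.3 in the treatment arrays. It gave 59.4, 81.3 and 97.3 in the control arrays. The groups overlapped (81.7 ± 20.7 and 79.3 ± 19.0; SD, n = 3 each), and the log2 change was 0.031 (95% interval -0.47 to 0.53; limma, adjusted p = 0.986). ATRIP and TREX1 overlap in the RefSeq annotation, so this value describes both genes at once.

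**Figure D2:**
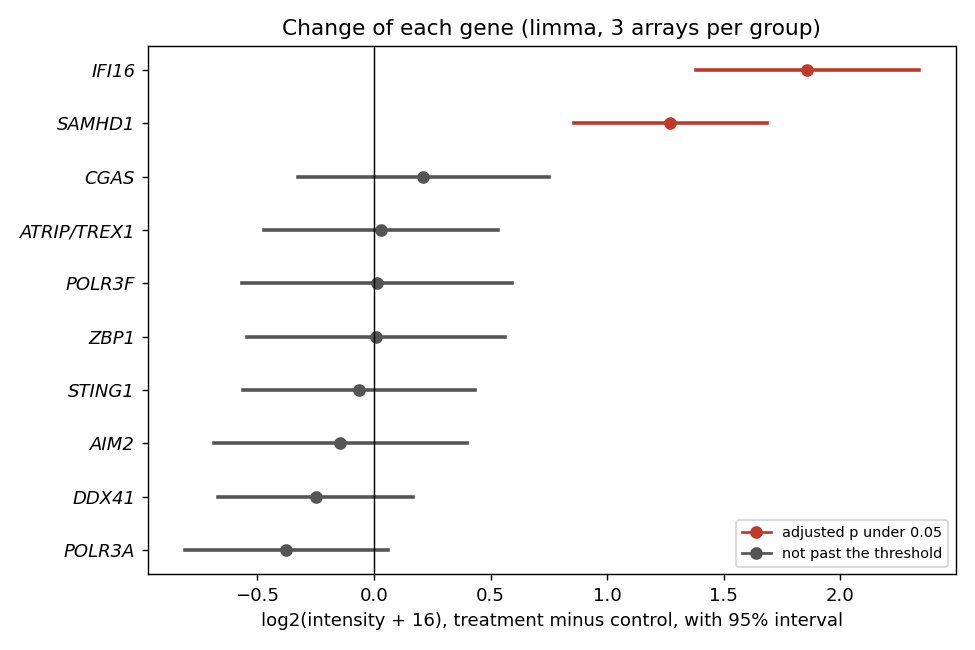
Change of each gene as log2(intensity + 16), treatment minus control (points), with the 95% interval of the limma fit on 3 arrays per group (lines). IFI16 (1.86) and SAMHD1 (1.27) have intervals clear of 0 and pass the threshold, and the other intervals include 0.

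Around these genes, lists of partners, chosen with earlier results of these data known, were read in the same fit. Their counts beside the share of all clusters are descriptions and not tests of a pathway. Of 23 measured genes of STING signalling and its regulators, 4 rose, 0 fell and 19 were short of the threshold. Of all clusters, 0.357% rose and 0.0150% fell. The list had a median log2 change of -0.16. IFI35, an interferon-induced leucine zipper protein, averaged 572 ± 262 in treatment and 82.3 ± 3.57 in control arrays (SD, n = 3 each), a log2 change of 2.48 ± 0.281 (SE). The ubiquitin ligase TRIM56 averaged 156 ± 20.2 and 63.8 ± 0.952, a change of 1.11 ± 0.196 whose call ended under 9 of 17 alternatives. IRF7 (1.67 ± 0.258) and NLRC5 (1.55 ± 0.238) passed as well, and each lost its call without control replicate 1, as NLRC5 did without treatment replicate 3 and IRF7 with an offset of 50. All 4 calls ended on a plain log2 scale and after adding 1. The kinase TBK1 gave 0.22 ± 0.211 and its substrate IRF3 -0.18 ± 0.239, and neither passed. Among the rest, the palmitoyltransferase ZDHHC1 (-0.37 ± 0.205) and G3BP1 (-0.30 ± 0.191), which aids cGAS, had the lowest p.

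The PYHIN genes MNDA, PYHIN1, IFI16 and AIM2 lie in this order on chromosome 1, with PYDC5 between PYHIN1 and IFI16. PYHIN1 gave 94.9, 143 and 94.0 in the treatment arrays, against 30.7, 37.9 and 27.5 in the control arrays. It rose by 1.38 ± 0.217 on the log2 scale (limma, adjusted p = 0.00798). This call was lost in 5 of 16 alternatives, including those without treatment replicate 2, control replicate 1 or control replicate 3. MNDA, a myeloid family member, was dim, at 8.41 ± 2.01 in treatment and 10.2 ± 4.04 in control arrays (SD, n = 3 each).

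With the listed inflammasome genes this list had 14 measured genes, of which PYHIN1 alone rose, 0 fell and 13 did not pass. The 14 include POP1 (-0.38 ± 0.217, SE), the gene of an RNase P subunit, which is not an inflammasome partner. POP1 stays in the counts and in the median. Over all clusters 0.357% rose. The inflammatory caspases CASP5 (1.04 ± 0.278) and CASP4 (0.62 ± 0.198) had the next lowest p, with groups that did not overlap. Such groups were found for 3 of the 14 with higher and 0 with lower treatment values, beside 7.47% and 7.10% of all clusters. Before adjustment 3 of the 14 had p under 0.05 by limma, beside 7.30% of all clusters. PYHIN1 is in both counts. CASP5 passed when 1 cluster per gene was tested, a setting that gave every gene the same error whatever its own spread. The adaptor PYCARD gave -0.25 ± 0.249 and CASP1 0.11 ± 0.211, neither of them passing. The list's median was 0.23. Its genes were mostly dim, with a median control level of 23.9, and the 360 olfactory receptor clusters had a median change of 0.119.

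RNA polymerase III subunits other than POLR3A and POLR3F numbered 15 measured genes, of which 0 passed limma and 2 were below 0.05 without adjustment, as were 7.30% of all clusters. These were POLR3E (-0.52 ± 0.199) and POLR3D (-0.48 ± 0.200), both subunits that only this polymerase uses. Log2 changes were negative for 12 of the 15, with a median of -0.21. As deviations from the control mean, the 15 genes had medians of -0.24, -0.25 and -0.31 in treatment replicates 1, 2 and 3, and of -0.043, 0.034 and 0.0085 in the control replicates. Groups that did not overlap, with lower treatment values, were found for 4 of the 15, beside 7.10% of all clusters.

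Among 23 measured genes of DNA clearance and nucleotide metabolism, 0 passed limma, and 2 had p under 0.05 before adjustment, a share close to the 7.30% of all clusters. They were DNASE2B, an acid nuclease at a dim 30.0 ± 2.42 in treatment and 12.2 ± 1.35 in control arrays (SD, n = 3 each), and the RNA editor ADAR (0.63 ± 0.207). The lysosomal nuclease DNASE2 gave -0.29 ± 0.220 and the RNase H2 catalytic subunit RNASEH2A -0.32 ± 0.211. The median was -0.060, and groups did not overlap for 2 of the 23 with higher and for 3 with lower treatment values, beside 7.47% and 7.10% of all clusters.

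The list for the ZBP1 death pathway had 8 measured genes, among them EIF2AK2, which is not a core part of that pathway. Of the 8, 0 passed limma, and 2 had p under 0.05 before adjustment (7.30% of all clusters). The kinase EIF2AK2 (PKR) gave 0.82 ± 0.211 and the necroptosis effector MLKL 0.67 ± 0.221. EIF2AK2 passed with an intensity trend in the variance prior. Among 19 genes of other proteins reported to sense DNA or to regulate that response, 0 passed limma, and 0 had p under 0.05 before adjustment. TLR9 (0.31 ± 0.349) and Ku70, encoded by XRCC6 (-0.17 ± 0.193), had the lowest p.

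SAMHD1 acts against the supply of nucleotides and is regulated by cyclin-dependent kinases. Of 11 genes linked to nucleotide supply or to these kinases 0 passed limma, and 0 had p under 0.05 before adjustment. All 11 log2 changes were nevertheless negative, with a median of -0.14. As a deviation from the control mean, their median was -0.45 in treatment replicate 3, the array least like the others, -0.088 in treatment replicate 2 and -0.039 in treatment replicate 1. The control arrays had medians of -0.14, 0.0074 and 0.13 in replicates 1, 2 and 3, a range that holds treatment replicates 1 and 2. Thymidine kinase TK1 (-0.34 ± 0.240) and CDK1 (-0.23 ± 0.200) had the lowest p.

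**Figure D3:**
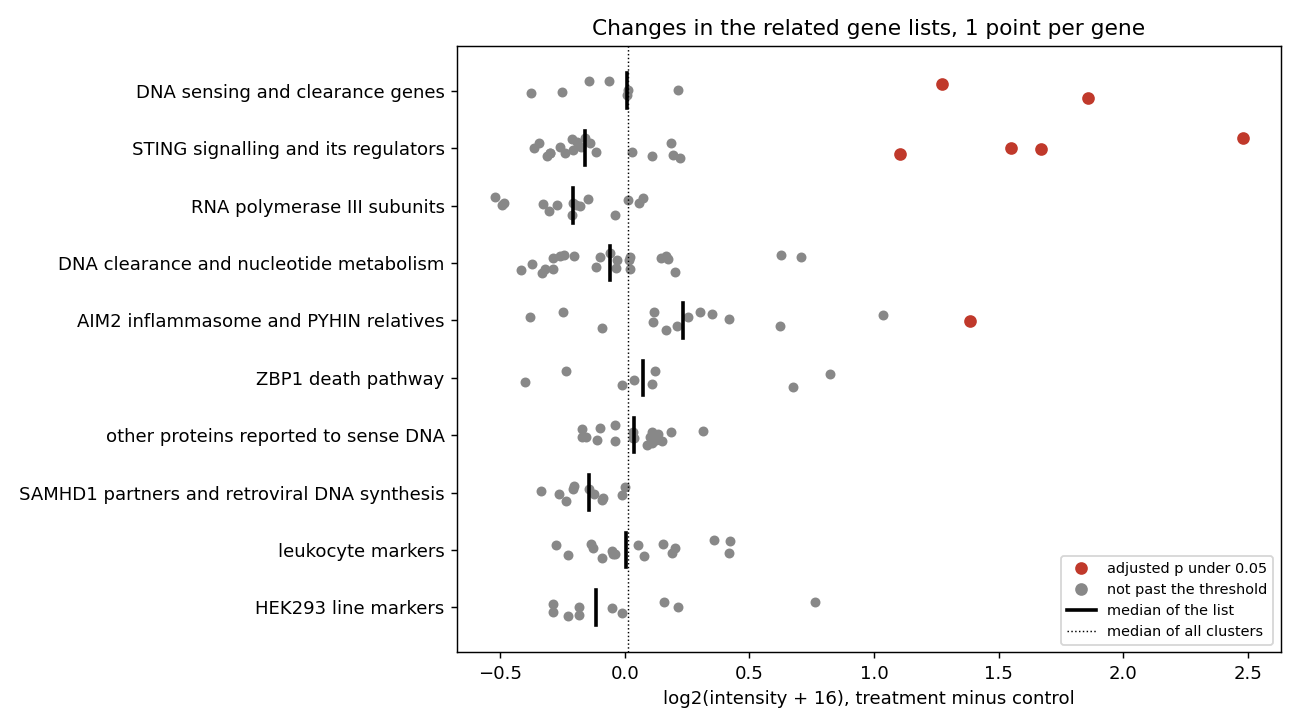
Log2 change (treatment minus control) of each measured gene, 1 point per gene, by list, with a black bar at the list's median and a dotted line at the median of all clusters (0.012). Red points passed the threshold: 2 of the 9 genes followed here, 4 in the STING list and PYHIN1. Over all clusters 0.357% rose and 0.0150% fell.

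**Figure D4:**
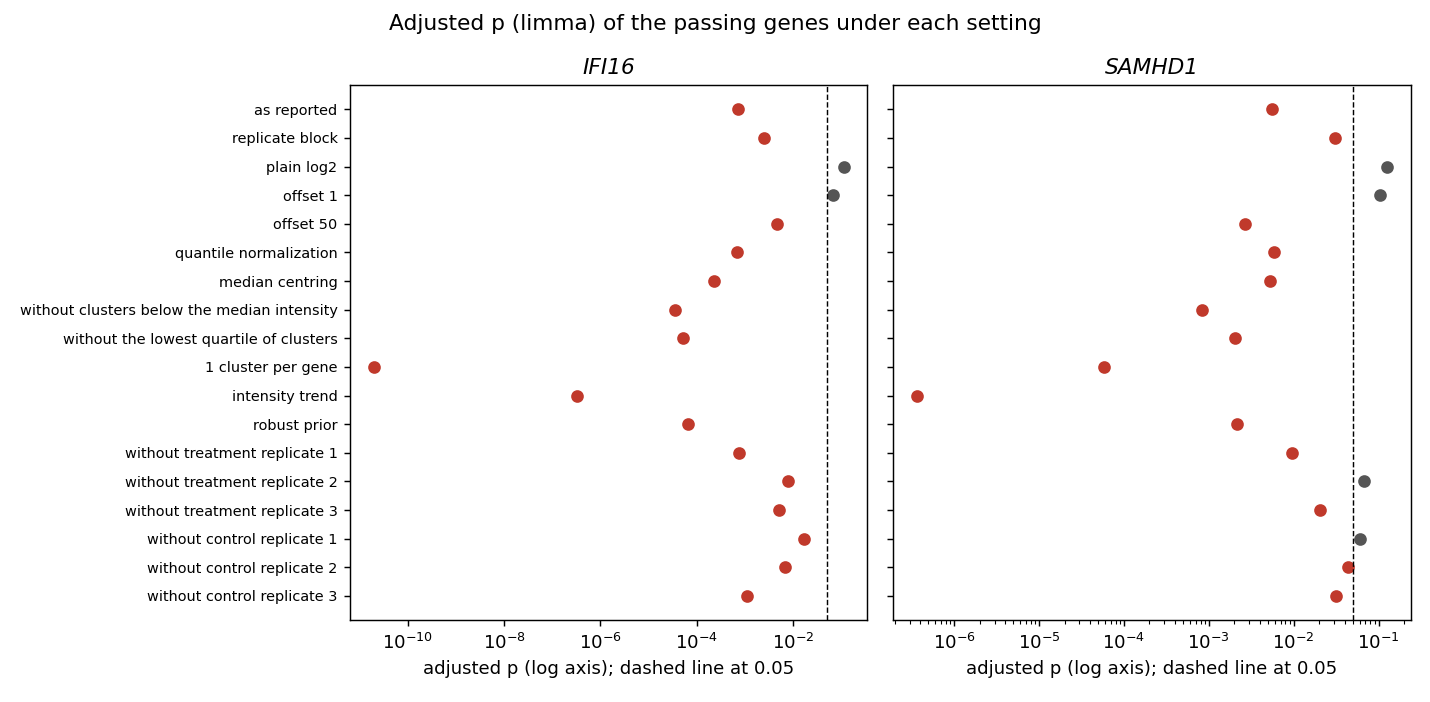
Adjusted p by limma (log axis) of IFI16 and SAMHD1 as reported and under each alternative, with the threshold of 0.05 dashed. IFI16 misses it on a plain log2 scale and after adding 1, and SAMHD1 also without treatment replicate 2 and without control replicate 1.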

How the data were processed

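RNA of 6 HEK293 samples was hybridised to Affymetrix Gene 1.0 ST arrays, 1 biotin-labelled sample each, per the labels' protocols. The submitters' processing notes name Partek. How background, scaling between arrays and probe summary were handled is not given in the sources used. The deposited values are linear intensities, as their range shows: minima per array were 3.73e-05 to 6.01e-05 and maxima 8515 to 9794. Groups and replicate numbers follow the sample titles.

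The platform annotation gave 1 symbol to 19460 of 33297 clusters, several to 1754 and none to 12083. RefSeq held 19429 of the single symbols and changed 0. A gene with several clusters was represented by the brightest. Intensities plus 16 were log2-transformed and fitted across all clusters with limma 3.58.1 (lmFit, eBayes; R 4.3.3). Tests were two-sided and adjusted by Benjamini-Hochberg, and the model held no block. The fit was tested on simulated data.

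Members and lists were chosen with earlier results of these data known. Named genes are the members, in each list up to 6 that passed and the 2 others with the lowest p, and for each member that passed the 3 genes most alike. TBK1, IRF3, MNDA, PYCARD, CASP1, DNASE2, RNASEH2A, NEFM and PTPRC were named for their roles after their values were seen. TYROBP, LAPTM5 and CD14 were named for their levels, and POP1 because it is not an inflammasome gene. No build is named for the arrays, so coordinates belong to the promoter table only. The number of arrays limits the precision. Alternatives were other offsets, normalizations, filters, variance priors and thresholds, a replicate block and leaving out each array.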

Additional observations from a re-analysis of the deposited data

How the results depend on the processing

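IFI16 and SAMHD1 kept a positive change under all 17 alternatives run for each, at 1.71 to 2.03 and 1.22 to 1.31 on the log2 scale. Both passed under 13 of them, and IFI16 alone under 2 more. The number of genes past the threshold among the 9 was 0 on a plain log2 scale, 0 after adding 1, and 1 to 2 when an array was left out. Over all clusters, 124 calls became 40 on the plain scale, 58 after adding 1, and 69 to 129 when an array was left out (lowest without control replicate 1, then 82 without treatment replicate 2). The cause was not tested. The replicate block gave 105 clusters and both genes (SAMHD1, adjusted p = 0.0305). Deviations of same-numbered arrays correlated at -0.166, 0.0839 and -0.356, and 0 of 6 arrays correlated best with their own number. These values gave no sign of pairing by number. With so few arrays per group they cannot exclude it, and the titles do not say whether same-numbered arrays were matched. Testing 1 cluster per gene made the variance prior infinite, giving every gene the same error.

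DDX41 and POLR3A stayed negative under all 17 alternatives and passed under 0. The genes near 0 changed sign. Leaving out an array gave -0.0031 to 0.46 for CGAS, -0.24 to 0.094 for STING1, -0.35 to 0.057 for AIM2, -0.30 to 0.18 for ZBP1, -0.21 to 0.36 for POLR3F and -0.13 to 0.22 for the ATRIP and TREX1 cluster. ZBP1 gave -0.0093 with an offset of 50, -0.11 with quantile normalization and -0.047 with median centring. POLR3F gave -0.042 with median centring, and the shared cluster -0.035 with quantile normalization and -0.025 with median centring. CGAS, AIM2, ZBP1 and the shared cluster were below the median intensity and so have no value under that filter.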
